A study of Mus musculus with 6 samples.

Results

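The genes described here are the core of calcium cycling in the heart muscle cell: Cacna1c, Ryr2, Trdn, Casq2, Jph2, Atp2a2, Pln and Slc8a1. They were selected on the measured counts of these same libraries, so their levels are given as a description. Of the 8 genes, 5 had a value by the rule used, among 11127 genes with a value in all. The rule read the interval of each deposited row on the mouse assembly GRCm38 and summed the counts of every row with at least 80% of its exon bases, and at least 100 bases, on the gene. The deposited row names were not used: of the 4 rows named for one of these genes, 2 met the rule, and the row named Trdn held no exon base of Trdn.

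In each heartbeat, calcium enters through the L-type channel in the surface membrane, whose pore is Cacna1c, and opens the ryanodine receptor Ryr2 on the sarcoplasmic reticulum, the internal calcium store. Triadin (Trdn) and calsequestrin (Casq2) belong to the release complex on the store side, and junctophilin (Jph2) holds the store close to the surface membrane. Relaxation follows as the pump SERCA2 (Atp2a2), held in check by phospholamban (Pln), refills the store and the exchanger NCX1 (Slc8a1) moves calcium out of the cell.

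RNA sequencing libraries were labelled as intervertebral disc of C57BL/6 mice, 3 from a wild type group and 3 from a group named for intervertebral disc degeneration (below, degeneration). No other treatment, allele or sex was given for either group, and nothing in the labels says how degeneration was brought about or whether the 3 libraries of a group came from separate animals. The submitters' design text gives an age of 21 days and speaks of retina, whereas the sample labels name the disc. Library totals ran from 3119215 to 4009562 counts, and 3 counts, taken as the floor of detection, were worth 0.748 to 0.962 counts per 1000000 (CPM).

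The libraries did not fall by their labels. Heart muscle markers, of which 2 of 8 could be located (Myh6 and Myl3), summed to 16492 to 21589 CPM in the 3 wild type libraries and degeneration 1, and to 3.77 and 2.24 CPM in degeneration 2 and 3. Kidney tubule markers, 6 of 12 located, summed to 33.3 to 49.1 CPM in the first 4 libraries and to 10374 and 8252 CPM in degeneration 2 and 3. Of 13 disc and cartilage markers, 6 were located and summed to 9.45 to 19.2 CPM in the first 4 libraries and 137 CPM in both of the others, where Krt8 made up 127 and 125 CPM. Acan, the large proteoglycan of disc and cartilage, had 0 to 2 counts per library, and Krt19, a notochordal keratin, had 0 counts in each. Col11a2 went the other way, at 9.98, 9.23, 4.52 and 3.78 CPM in the first 4 libraries and 0.869 and 1.28 CPM in degeneration 2 and 3. Chad had 10 to 25 counts per library and Cnmd 5 to 14. The part of tissue makeup in the values below was not tested, and in these bulk libraries fewer cells of a type and less RNA per cell cannot be told apart. Each comparison of the labelled groups is therefore given with and without degeneration 1.

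The rows covered short stretches of each gene, and the exons below are examples of sequence that lay under a row. How much of each row's count came from them was not measured. Exon 13 of Ryr2 (Ryr2-201, GRCm38 chr13:11833924-11834088, minus strand) lay under a row named Gm47494. Exon 12 of Atp2a2 (chr5:122461863-122461985, minus strand) lay under a row named Pptc7 and also under one named Rad9b, so its fragments may not have been counted. Exon 17 of Cacna1c (chr6:118683332-118683452, minus strand) lay under the row of its own name. Capitals mark the bases under the row, here the whole exon.
Ryr2 exon 13: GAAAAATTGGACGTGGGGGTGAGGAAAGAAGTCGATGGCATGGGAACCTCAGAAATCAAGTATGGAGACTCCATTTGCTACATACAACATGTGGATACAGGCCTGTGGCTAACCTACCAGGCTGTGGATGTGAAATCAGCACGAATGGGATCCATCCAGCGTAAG
Atp2a2 exon 12: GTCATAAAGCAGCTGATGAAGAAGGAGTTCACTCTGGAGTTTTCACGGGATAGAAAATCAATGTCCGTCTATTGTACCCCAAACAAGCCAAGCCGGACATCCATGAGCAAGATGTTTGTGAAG
Cacna1c exon 17: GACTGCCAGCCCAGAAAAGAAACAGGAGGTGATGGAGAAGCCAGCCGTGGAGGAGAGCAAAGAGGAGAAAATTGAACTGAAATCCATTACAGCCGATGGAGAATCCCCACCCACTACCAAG

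The pore of the L-type channel, Cacna1c (chr6:118587240-119196418, minus strand), was measured over 1762 of its 21191 exon bases, or 8.31%, in 2 rows. It stood at 1713, 1579 and 1643 CPM in wild type 1, 2 and 3. Degeneration 1 read 1423 CPM, whereas degeneration 2 read 73.0 and degeneration 3 read 77.9. The wild type mean was 1645 ± 67.3 CPM (SD, n = 3), the degeneration 1 value lay below all 3 wild type values, and the last 2 libraries lay far below all of them. The wild type mean was 22.5 times degeneration 2 (95% Wilson counting interval 19.9 to 25.5) and 21.1 times degeneration 3 (18.6 to 23.9). These intervals, and those below, cover only the counting error of the single degeneration library. They hold no error of the wild type mean and no spread between libraries. Of the row named Cacna1c, 8829 of 21864 bases lay outside the gene, so part of its count could come from elsewhere.

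Ryr2, the release channel itself (chr13:11553102-12106945, minus strand), was measured over 1803 of 28790 exon bases (6.26%) in 2 rows. Its level was 7264, 6098 and 6211 CPM in wild type 1, 2 and 3 and 6012 CPM in degeneration 1. Degeneration 2, with 44 counts, read 12.7 CPM, and degeneration 3, with 54 counts, read 17.3. The wild type mean of 6524 ± 643 CPM (SD, n = 3) was 512 times degeneration 2 (interval 381 to 687) and 377 times degeneration 3 (289 to 492). Degeneration 1 lay just below the lowest wild type library. Both rows showed the same gap between the first 4 libraries and the last 2. The row named Ryr2 read 6522, 5318 and 5629 CPM in wild type, 5466 in degeneration 1, 12.2 in degeneration 2 and 13.8 in degeneration 3. The row over exon 13 read 742, 780 and 582 CPM in wild type, 546 in degeneration 1, 0.579 in degeneration 2 and 3.53 in degeneration 3. Its value in degeneration 2 is under the floor of 3 counts.

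Triadin, Trdn (chr10:33080554-33476709, plus strand), anchors calsequestrin to the release channel, and was measured over 483 of 9352 exon bases (5.16%). It varied most among the wild type libraries, at 351, 249 and 463 CPM. Degeneration 1 read 391 CPM, degeneration 2 read 1.74 and degeneration 3 read 0.641. Its coefficient of variation in wild type was 30.2%, against 2.79% to 9.85% for the other 4 located genes, and degeneration 1 lay within the wild type range. With 6 and 2 counts in degeneration 2 and 3, the wild type mean of 354 ± 107 CPM (SD, n = 3) was 204 times the first (interval 93.5 to 445) and 553 times the second (152 to 2016). The 2 counts in degeneration 3 are under the floor of 3. These folds pool 2 rows that differ. The row named Clvs2 read 18.0, 14.5 and 16.3 CPM in wild type, 22.4 in degeneration 1, 1.45 in degeneration 2 (5 counts) and 0.641 in degeneration 3 (2 counts). The row named Gm47842 read 333, 235 and 447 CPM in wild type, 369 in degeneration 1, 0.290 in degeneration 2 (1 count) and 0 in degeneration 3.

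The 2 Trdn rows read different stretches of the gene. One, named Gm47842, covered 366 annotated exon bases in 1 stretch. Of these, 60 are in exon 9 of the 38-exon transcript Trdn-201, 211 are in exon 9 of Trdn-202, its last, and 60 are in exon 2 of Trdn-205. The other, named Clvs2, covered exons 35 to 37, which among coding transcripts are found in Trdn-201. As background, heart makes mainly a short triadin and skeletal muscle longer forms. Per kb of covered exon, the exon 9 row stood at 924 ± 290 CPM in wild type (SD, n = 3) and 1007 CPM in degeneration 1, and the row over exons 35 to 37 at 139 ± 14.6 and 191 CPM. The lowest wild type library of the exon 9 row, at 642 CPM per kb, lay above the highest of the other, at 153. Both rows also hold bases outside annotated exons, which could add to either. Of the row named Clvs2, 1149 of 7259 bases lay outside the gene. The late exons are short and alike: exons 35 and 36 share the same base at 33 of 39 positions, and exon 37 shares 21 of 39 with each. They lie at chr10:33466423-33466461, chr10:33468156-33468194 and chr10:33471566-33471604 (GRCm38, plus strand), and capitals again mark bases under the row.
Trdn exon 35: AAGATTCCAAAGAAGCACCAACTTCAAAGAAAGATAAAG
Trdn exon 36: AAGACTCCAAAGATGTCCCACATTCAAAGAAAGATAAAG
Trdn exon 37: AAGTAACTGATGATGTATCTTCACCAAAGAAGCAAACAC

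Calsequestrin, Casq2 (chr3:102086415-102146514, plus strand), is the protein that buffers calcium inside the store. It had no value by the rule, since the row on it, named Gm16160, held 49 of its exon bases, under the minimum of 100. That row had 1113, 918 and 983 counts in wild type, 949 in degeneration 1, and 0 in both degeneration 2 and 3. In CPM it read 278, 257, 296 and 299 in the first 4 libraries, and a count of 0 allowed up to 0.869 and 0.962 CPM in the others. Its counted bases lie in exon 3 (chr3:102113065-102113165), where the capitals mark them.
Casq2 exon 3: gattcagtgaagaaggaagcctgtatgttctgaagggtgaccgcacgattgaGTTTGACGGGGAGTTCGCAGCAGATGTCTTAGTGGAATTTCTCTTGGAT

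Junctophilin, Jph2 (chr2:163336242-163397993, minus strand), was the thinnest measured, with 119 of 4255 exon bases (2.80%) in the 3′ UTR in its last exon, under a row named R3hdml. Of that row, 435 of 1094 bases lay outside the gene, so part of its count could come from elsewhere. The level of Jph2 was 104, 97.9 and 110 CPM in wild type, 139 in degeneration 1, 2.32 in degeneration 2 and 3.85 in degeneration 3. Degeneration 1 was above each wild type library, at 1.33 times their mean of 104 ± 6.08 CPM (SD, n = 3). The wild type mean was 44.9 times degeneration 2 (interval 22.7 to 88.5) and 27.0 times degeneration 3 (15.5 to 47.2). A row left out by the rule, named Hnf4aos and holding 45 bases of exon 5, read 34.7, 33.6, 33.2 and 53.2 CPM in the first 4 libraries and 1.45 and 1.28 CPM in the last 2, with degeneration 1 again the highest. The capitals mark the 45 bases (exon at chr2:163338622-163338699, minus strand).
Jph2 exon 5: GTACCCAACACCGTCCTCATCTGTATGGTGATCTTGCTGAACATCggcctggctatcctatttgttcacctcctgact

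The pump gene Atp2a2 (chr5:122453513-122502225, minus strand) was measured over 1102 of 6081 exon bases (18.1%), the largest share among the 5. It stood at 4220, 4096 and 4332 CPM in wild type and at 5661 in degeneration 1. Degeneration 2 kept 989 counts (287 CPM) and degeneration 3 kept 786 (252 CPM). Among the located genes it had the smallest fold: the wild type mean of 4216 ± 118 CPM (SD, n = 3) was 14.7 times degeneration 2 (interval 13.8 to 15.7) and 16.7 times degeneration 3 (15.6 to 17.9). Degeneration 1 was above each wild type library, at 1.34 times their mean. The covered exons, 12 to 16, are in all 3 coding transcripts of the gene, so the forms of SERCA2 that differ at their end cannot be told apart here. Of the 4719 bases of the row measured, named Pptc7, 999 lay outside the gene. The row lay just inside the rule, with 81.4% of its exon bases on Atp2a2, and 251 further exon bases on Anapc7. Just outside, a row named Rad9b with 72.7% of its exon bases on Atp2a2 read 5629, 5090 and 6188 CPM in wild type, 8310 in degeneration 1, 373 in degeneration 2 and 313 in degeneration 3. Both rows hold the same 2 exons (342 bases), and the command in the file headers has no option to count a fragment that overlaps more than 1 row.

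**Figure D1:**
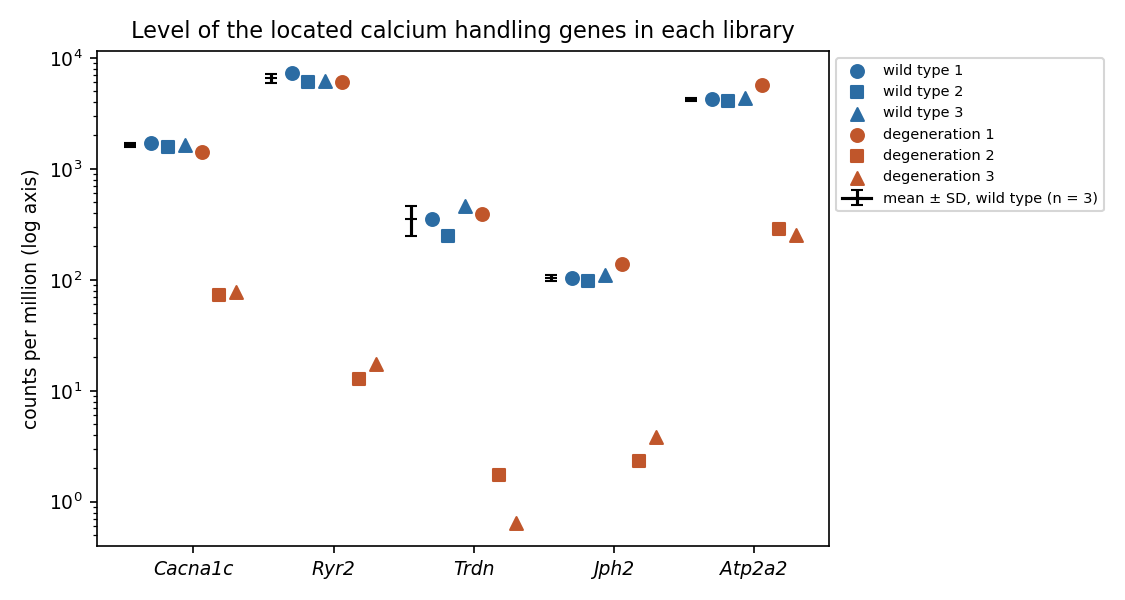
CPM (log axis) of the 5 located genes in each of the 6 libraries, with blue points for wild type, orange for degeneration, and the wild type mean ± SD (n = 3) in black. Degeneration 1 sits with the wild type libraries for each gene, and degeneration 2 and 3 lie lowest, from 287 CPM for Atp2a2 down to 0.641 CPM for Trdn, a value of 2 counts and under the floor of 3.

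Phospholamban (Pln, chr10:53337667-53345987, plus strand), the brake on the pump, had no row on it, and no level is given. The exchanger Slc8a1 (chr17:81373105-81738377, minus strand) had none by the rule, since no row held an exon base of it. The row named Slc8a1 lay mostly inside the gene but between its exons, with 823 exon bases of AC117235.1. It read 365, 407 and 288 CPM in wild type, 507 in degeneration 1, 1.45 in degeneration 2 and 3.85 in degeneration 3, which is no measure of the exchanger's mRNA. Sarcolipin (Sln), a pump inhibitor related to phospholamban, was at 0, 0 and 5.43 CPM in wild type, 9.76 in degeneration 1, and 1.16 and 0.962 in degeneration 2 and 3.

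Within the spans of the 8 genes, 31 rows were found: 8 met the rule, 14 lay wholly inside a gene with no annotated exon base under them, and 9 were of other kinds. The exon-free rows were not silent. In Ryr2, the exon-free row named Gm47493 (4714 bases) held 175 ± 48.9 CPM per kb of row in wild type (SD, n = 3), beside 202 ± 21.7 for the row named Ryr2 and 201 ± 30.1 for the row over exon 13. The other exon-free row in Ryr2, Gm26956, held 37.8 ± 14.4 CPM per kb. Counted in CPM, Gm47493 read 1025, 883 and 574 in wild type, 789 in degeneration 1, 2.90 in degeneration 2 and 2.24 in degeneration 3. The 8 exon-free rows in Trdn together held 8.80, 7.21 and 10.3 CPM per kb of row in wild type, 10.7 in degeneration 1, and 0.125 and 0.208 in degeneration 2 and 3. The exon-free row in Jph2, of 103 bases, read 46.0, 51.6 and 32.2 CPM per kb in wild type, 168 in degeneration 1 and 0 in degeneration 2 and 3. The levels above therefore count intron positions along with exons, in a share that was not measured. The 3 exon-free rows in Slc8a1 differed from these: together they read 142, 162 and 89.0 CPM per kb of row in wild type, 101 in degeneration 1, and 58.0 and 65.1 in degeneration 2 and 3, a gap of a few fold at most. One of them, Gm50044, had 0 counts in degeneration 2 and 3 and 14.0, 14.0, 21.4 and 34.6 CPM in the other 4.

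**Figure D2:**
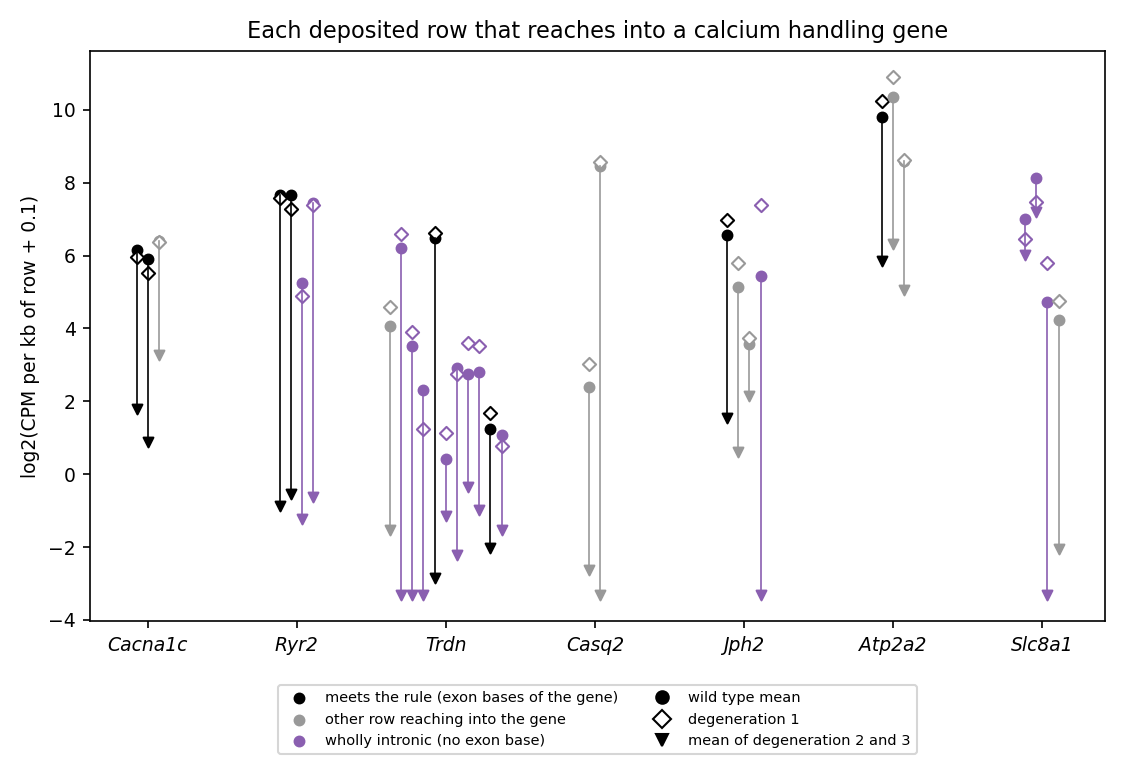
Each vertical line is 1 deposited row that reaches into a gene (x axis), with its wild type mean (circle), degeneration 1 (diamond) and the mean of degeneration 2 and 3 (triangle) as log2(CPM per kb of row + 0.1). Black rows meet the rule, purple rows hold no exon base and grey rows are of other kinds; in Ryr2 the purple rows stand at 175 and 37.8 CPM per kb and the black ones at 202 and 201.

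Set side by side per kb of covered exon in wild type, the genes ranked as follows. Atp2a2 (3826 ± 107 CPM per kb, SD, n = 3) and Ryr2 (3619 ± 357) were highest, and their libraries overlapped, with Ryr2 at 3382 to 4029 and Atp2a2 at 3717 to 3931. However, 342 of the 1102 Atp2a2 bases also lay under the row named Rad9b, where fragments may not have been counted. The Atp2a2 value per kb may thus be too low, and its place against Ryr2 is not settled. Cacna1c (934 ± 38.2), Jph2 (874 ± 51.1) and Trdn (734 ± 222) were lower, and each overlapped the next. The value of Cacna1c pools unlike rows: 1633 ± 76.4 for the row of its own name, which lies above the 3 wild type libraries of Jph2, and 117 ± 6.68 for the row named Gm18981. Both rows hold bases outside the exons of Cacna1c-201. In Gm18981 these are 483 of 813 bases, and in the other row stretches of 103, 97, 128, 166 and 21 among 949 bases. Per kb of whole row the order changed to Atp2a2 (893 ± 24.9), Ryr2 (202 ± 19.9), Jph2 (95 ± 5.56), Cacna1c (70.1 ± 2.87) and Trdn (32.2 ± 9.71), and no libraries of neighbouring genes overlapped. The place of Cacna1c against Jph2 thus depended on the length used.

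The counts of the other located genes were set against that of Ryr2 in each library. The count on Cacna1c was 23.6% to 26.4% of that on Ryr2 in wild type and degeneration 1, and 573% and 450% in degeneration 2 and 3. Atp2a2 was 58.1%, 67.2% and 69.7% of Ryr2 in wild type and 94.2% in degeneration 1, outside the wild type range, and 2248% and 1456% in degeneration 2 and 3. Jph2 was 1.43% to 1.77% of Ryr2 in wild type, 2.30% in degeneration 1, again outside that range, and 18.2% and 22.2% in the last 2. Trdn was 4.09% to 7.46% in the first 4 libraries, and its 13.6% and 3.70% in the last 2 rested on 6 and 2 counts.

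**Figure D3:**
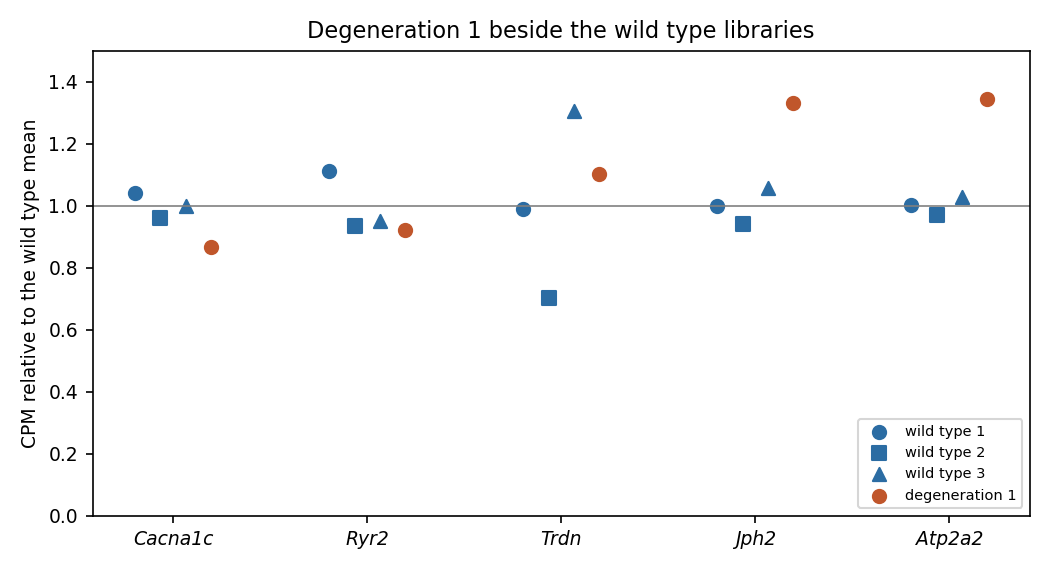
CPM of wild type 1 to 3 (blue) and degeneration 1 (orange) relative to the wild type mean of each gene, on an axis that starts at 0. Degeneration 1 lies below the 3 wild type libraries for Cacna1c (0.865) and Ryr2 (0.921), above them for Jph2 (1.33) and Atp2a2 (1.34), and among them for Trdn (1.10).

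Across all genes, edgeR's quasi-likelihood test over the 6 libraries called 0 of 5630 genes at an adjusted p under 0.05 (0% called), with 1102 at an unadjusted p under 0.05. DESeq2 called 525 of 6522 genes, and limma-trend called 0, with 1037 at an unadjusted p under 0.05. In the edgeR fit the members' log2 differences, degeneration minus wild type, were -1.62 ± 1.30 (SE) for Cacna1c, -1.63 ± 2.17 for Ryr2, -1.37 ± 2.0 for Trdn, -1.07 ± 1.49 for Jph2 and -1.0 ± 1.35 for Atp2a2. Their median was -1.37, beside 0.00 over all genes tested. With degeneration 1 left out, 26.1% of 6186 genes were called lower in degeneration and 27.0% higher, and the edgeR common dispersion was 0.0231 instead of 0.187. The members' log2 differences were then -4.85 ± 0.18 for Cacna1c, -9.16 ± 0.28 for Ryr2, -8.54 ± 0.42 for Trdn, -5.48 ± 0.24 for Jph2 and -4.37 ± 0.19 for Atp2a2. No p is attached to them, since the genes were selected on these counts. Scaling by the file totals instead of the trimmed mean shifted the median of all genes from 0.02 to 0.42 without degeneration 1 and moved the split to 18.0% lower and 44.9% higher. The members then stood at -3.97 for Atp2a2 to -8.76 for Ryr2.

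Other genes of the calcium pathway were read from a list of 59, of which 35 had a value and 30 were tested over all 6 libraries. None was called by edgeR with all 6 libraries, as with all genes. Without degeneration 1, 20 of 31 tested were called lower and 5 higher (edgeR, adjusted p under 0.05), with a median log2 difference of -1.0 beside 0.02 over all genes. Over all genes tested the shares were 26.1% lower and 27.0% higher, and 18.0% and 44.9% by file totals. By file totals the same fit called 16 of the 20 lower and the same 5 higher, and 4 were no longer called, among them Atp2b1, Atp2b4 and Slc8a2. The values that follow are log2 differences without degeneration 1, from edgeR with trimmed mean scaling.

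In the beta-adrenergic input, which tunes the cycle through protein kinase A, 5 of 6 tested genes fell and none rose. Over all genes tested, 26.1% were called lower and 27.0% higher. Prkar1a, a regulatory subunit of that kinase, read 225, 261 and 336 CPM in wild type, 353 in degeneration 1, 121 in degeneration 2 and 105 in degeneration 3 (-1.68 ± 0.19). Pde4d, which breaks down cyclic AMP, read 127, 93.7 and 262 CPM, then 180, 31.9 and 32.7 (-2.72 ± 0.40). For both, degeneration 1 lay on the wild type side of the gap.

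Of the surface channel partners, 4 of 5 fell and 1 rose, against 26.1% lower and 27.0% higher over all genes tested. Cacnb2, the beta subunit carried by the L-type channel, read 56.6, 47.0 and 33.8 CPM in wild type, 39.0 in degeneration 1, and 5.79 and 7.05 in degeneration 2 and 3 (-3.24 ± 0.27). Cacna1h, the pore of a T-type channel, read 44.6, 49.5 and 39.2 CPM, then 34.3, 4.93 and 6.41 (-3.37 ± 0.23). The gene that rose, Cacna1d, another L-type pore, is named after its value was seen: it read 1.25, 0.559 and 1.51 CPM in wild type, 1.26 in degeneration 1, and 9.56 and 3.53 in degeneration 2 and 3 (2.16 ± 0.57).

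Among release channel partners, 6 of 7 fell, against 26.1% of all genes tested. Not all of these 6 were called by file totals, where 18.0% of all genes tested were called lower. Asph, whose locus encodes junctin, the triadin-like partner of Ryr2, as well as a hydroxylase found in many tissues, read 931, 884 and 1090 CPM in wild type, 1146 in degeneration 1, and 415 and 384 in degeneration 2 and 3 (-1.68 ± 0.16). Degeneration 1 was above each wild type library, and degeneration 2 and 3 were below all of them.

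Of the other release channels, Itpr1 and Itpr2 rose and Itpr3 was not called, so that 2 of 3 were higher, against 27.0% of all genes tested (44.9% by file totals). The difference from the other roles was not tested. Itpr1, an inositol trisphosphate receptor, which releases calcium from internal stores in many cell types, read 369, 380 and 437 CPM in wild type, 361 in degeneration 1, and 1261 and 1249 in degeneration 2 and 3. Its log2 difference was 1.26 ± 0.14 without degeneration 1 (edgeR adjusted p = 3.19e-05) and 0.98 ± 0.41 with all 6 libraries (edgeR adjusted p = 0.257). Itpr2 read 94.0, 72.1 and 89.2 CPM, then 79.3, 258 and 251 (1.18 ± 0.14 without degeneration 1). Ryr1, the skeletal muscle release channel, was near the floor in each library, at 1.28 to 4.47 CPM.

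Of pumps, stores and pump regulators, 2 of 5 fell and 2 rose. Over all genes tested, 26.1% were lower and 27.0% higher (18.0% and 44.9% by file totals), and the difference from these shares was not tested. Srl, sarcalumenin, a calcium-binding protein of the store, read 190, 174 and 132 CPM in wild type, 180 in degeneration 1, and 21.1 and 22.4 in degeneration 2 and 3 (-3.33 ± 0.19). Ppp1ca, a catalytic subunit of the phosphatase that acts on phospholamban, read 285, 252 and 291 CPM, then 373, 326 and 248, and was not called (-0.34 ± 0.15). Both other pump genes, named after their values were seen, rose: Atp2a1, the skeletal pump, from 7.48 to 9.34 CPM in wild type to 18.0 and 17.0 in degeneration 2 and 3 (0.69 ± 0.24), and Atp2a3 from 21.4 to 42.5 CPM to 69.5 and 95.2 (0.81 ± 0.28).

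Of the genes for calcium exit and mitochondrial uptake, 3 of 4 fell, against 26.1% of all genes tested. None of the 3 was called by file totals. The surface pump Atp2b4 read 102, 85.8 and 105 CPM in wild type, 76.5 in degeneration 1, and 89.2 and 80.1 in degeneration 2 and 3 (-0.61 ± 0.15). Its sister pump Atp2b1 stayed between 50.3 and 58.6 CPM in all 6 libraries (-0.45 ± 0.15). Stim1, the store sensor, was the 1 located gene of store-operated entry, at 2.57 to 7.27 CPM, and was not called.

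**Figure D4:**
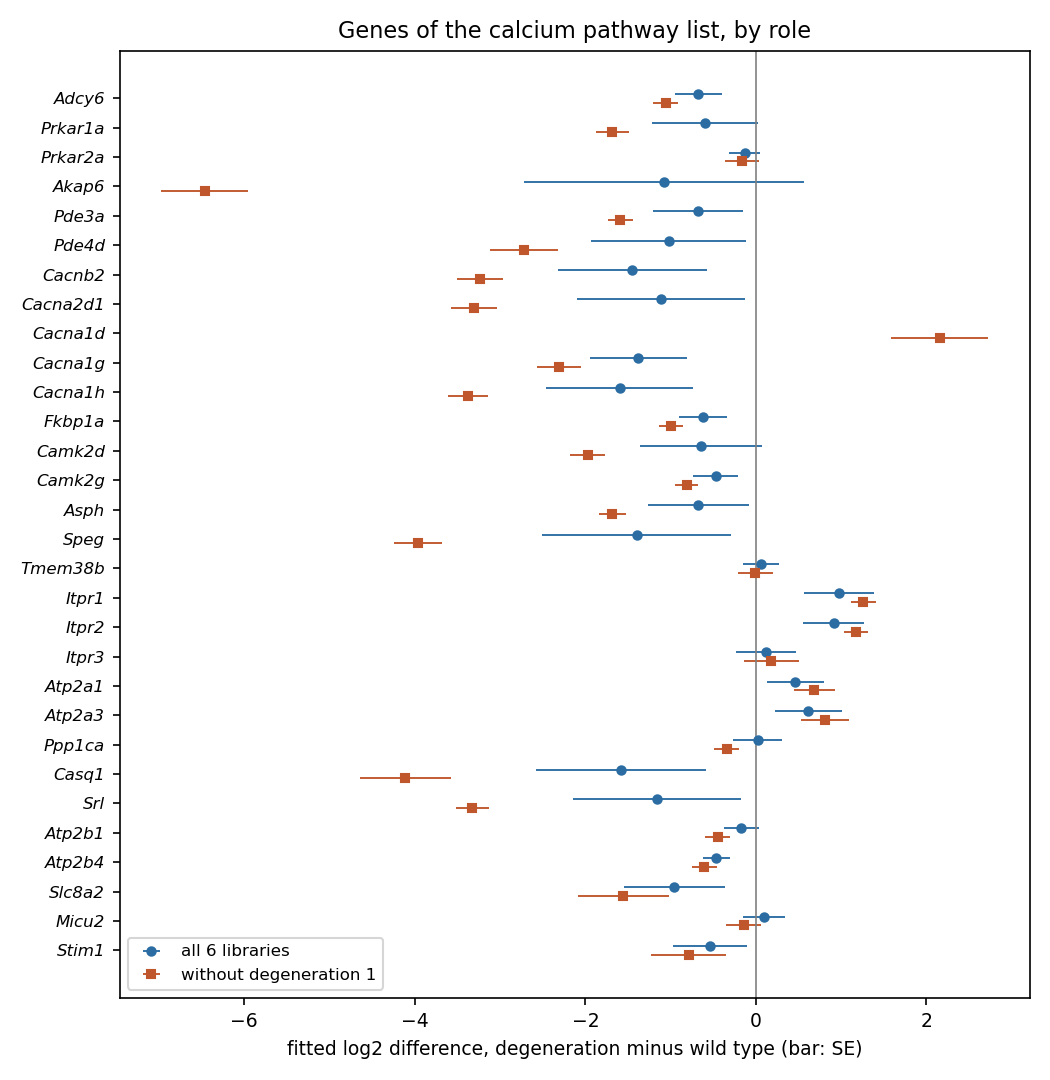
Fitted log2 difference, degeneration minus wild type, with its SE, for tested genes of the calcium pathway list in order of role, with all 6 libraries (blue circles) and without degeneration 1 (orange squares). Most values lie left of 0 and move further left without degeneration 1, Itpr1 and Itpr2 lie right of it at 1.26 and 1.18, and Atp2b1 stays within 0.5 of it.

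The genes whose pattern over the 6 libraries was most like the mean of the located members were Myom1, Tmod1, Pygm, Prune2 and Unc45b. Likeness was the root mean square difference of centred log2(CPM + 1) values, and it was computed for 2032 genes with a mean of at least 50 CPM. It ran from 0.13 for Myom1 to 0.21 for Unc45b, whereas the members themselves differed from their own mean by 0.53 for Jph2 to 1.33 for Ryr2. Myom1, a protein of the sarcomere's M band, read 1172, 1295 and 1223 CPM in wild type, 1472 in degeneration 1, and 21.4 and 23.4 in degeneration 2 and 3. Tmod1, which caps actin filaments, read 558, 516 and 508 CPM, then 549, 7.82 and 10.3.

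Promoters were looked up for all 8 genes, and 6 had at least 1 in RefSeq (GRCm38.p6); Trdn and Atp2a2 did not. The 250 bases before the start of Casq2 (chr3:102086165-102086414, plus strand) and of Ryr2 (chr13:12106946-12107195, minus strand) are shown because Casq2's row had 0 counts in degeneration 2 and 3 and Ryr2 had the largest fitted difference without degeneration 1. The capitals mark the E-box CANNTG, which reads the same on both strands and is bound by many helix-loop-helix factors, and the MEF2 site, searched on both strands. Casq2 held 2 E-boxes and 1 MEF2 site, and Ryr2 held 2 E-boxes and no MEF2 site in this window. Of the 9 windows of these 6 genes, 1 held a MEF2 site and all 9 an E-box. Cacna1c and Jph2 had more than 1 window each, and those of Jph2 overlap and hold the same E-box. Of 32851 promoters of the same length, 66.2% held an E-box and 2.92% a MEF2 site. A match is a stretch of letters and shows no binding.
Casq2 promoter: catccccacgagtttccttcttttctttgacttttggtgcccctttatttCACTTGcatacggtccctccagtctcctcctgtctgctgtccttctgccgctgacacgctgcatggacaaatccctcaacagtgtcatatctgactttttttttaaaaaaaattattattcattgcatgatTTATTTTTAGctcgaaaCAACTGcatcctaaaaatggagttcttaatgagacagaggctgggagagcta
Ryr2 promoter: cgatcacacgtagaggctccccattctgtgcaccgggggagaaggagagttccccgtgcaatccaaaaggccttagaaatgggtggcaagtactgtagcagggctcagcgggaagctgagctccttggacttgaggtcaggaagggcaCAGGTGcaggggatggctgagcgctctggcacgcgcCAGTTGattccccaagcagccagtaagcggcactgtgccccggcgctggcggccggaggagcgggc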

How the data were processed

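Counts were deposited by the authors as 1 table per library, made with featureCounts 2.0.1 on exons grouped by gene name, with fragments kept where both ends mapped to the same chromosome and without strand, per the file headers. The submitters' processing notes name Bowtie 0.12.2, mm8 and mm9; the build of the annotation is not given in the sources used here. Row names did not match their positions on GRCm38, although the row named Ryr2 had the same length (28790 bases) as the gene's exons, so 13561 of 53546 rows were placed by position on GENCODE M21 exons with bedtools 2.31.1, into 11127 genes that held 51.2% to 60.4% of the counts. The remaining counts stayed out of the tests and in the file totals behind CPM. 12 columns of values in a series table, whose names match no label, were not used.

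Genes were tested with edgeR 4.0.16 (quasi-likelihood, TMM, filterByExpr, Benjamini-Hochberg over all genes tested). DESeq2 1.42.0, limma 3.58.1, other filters, placement rules, scalings, a replicate block and each library left out were the alternatives. In counts simulated for 6 libraries (5564 genes), edgeR called 75% of the genes changed 2-fold and 100% of those changed 4-fold. It also made 9 false calls. These shares cannot be taken as the power of the real comparison, in which degeneration 1 differed widely from degeneration 2 and 3. There the edgeR common dispersion was 0.187, and 0 of 5630 genes were called. The members and lists were chosen with earlier results of these data known, and the scaling by file totals was added after the values were seen. Named list genes are the 2 of highest mean CPM in each role, except 1 that is counted but not reported here, and Cacna1d, Atp2a1, Atp2a3, Ryr1, Sln, Slc8a2, Casq1, Akap6 and Itpr3 were named after their values were seen; the most similar genes are the 5 closest in pattern. With 3 libraries a group, not stated to be separate animals, p-values set a group difference against the spread between libraries.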

Additional observations from a re-analysis of the deposited data

How the results depend on the processing

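Depth limited Trdn and Jph2 most, at 2 to 12 counts in degeneration 2 and 3. The count of genes called over all 6 libraries was 0, and ranged from 0 to 3285 as each library was left out, the highest without degeneration 1. DESeq2 called 525 genes with all 6 libraries and gave no adjusted p for Atp2a2 and Jph2. The calcium pathway list went from 0 to 25 called as libraries were left out. With file totals as library sizes and degeneration 1 left out, 3889 genes and 21 genes of the list were called, and the log2 differences were -8.76 for Ryr2, -8.15 for Trdn, -3.97 for Atp2a2, -4.45 for Cacna1c and -5.07 for Jph2. Leaving out each library in turn gave -9.16 to -1.05 for Ryr2, -8.54 to -0.79 for Trdn, -4.37 to -0.46 for Atp2a2, -4.85 to -1.09 for Cacna1c and -5.48 to -0.50 for Jph2, the lowest in each case without degeneration 1. limma-trend gave -6.06 for Ryr2, -5.21 for Trdn, -3.29 for Jph2, -2.72 for Atp2a2 and -3.24 for Cacna1c. Between libraries of the same number, correlations of deviations were -0.04, 0.08 and -0.09. Degeneration 1 differed widely from degeneration 2 and 3, so these values cannot show whether equal numbers were paired. With the replicate block edgeR called 0 genes, with 710 at an unadjusted p under 0.05. That fit gave -7.47 for Ryr2, -6.27 for Trdn, -3.05 for Atp2a2, -3.53 for Cacna1c and -3.72 for Jph2, and the cause was not tested. By the names as deposited, Atp2a2 reversed to 0.32, and the wild type means were 5823 CPM for Ryr2, 155 for Trdn, 29.0 for Atp2a2, 1549 for Cacna1c and 1.73 for Jph2, since other rows are then read. A minimum of 300 bases gave 5823 CPM for Ryr2, which drops the row over exon 13, and no value for Jph2. A share of 50% raised Atp2a2 to 9852 CPM by adding a row, and a share of 95% left it without one. Totals multiplied by the TMM factor gave 4461 CPM for Atp2a2 and 1740 for Cacna1c. Among all values under an alternative, 118 were labelled as the same, 27 as moved, 5 as stronger and 1 as reversed. The members' log2 differences without degeneration 1 were among those that moved.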

Other observations

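Of 13 skeletal muscle markers, 6 were located and summed to 14.8 to 19.3 CPM over the first 4 libraries. In degeneration 2 and 3 the sum was 23.5 and 19.9 CPM, and single genes moved both ways. Casq1, the skeletal calsequestrin, read 7.48, 6.15 and 5.73 CPM in wild type, 5.98 in degeneration 1, and 0.579 and 0.321 in degeneration 2 and 3, where the values are under the floor of 3 counts. Myh11, the smooth muscle myosin heavy chain, read 99.3 to 166 CPM over all 6 libraries, with degeneration 2 and 3 at 107 and 99.4 CPM, within the wild type range. Akap6, which anchors protein kinase A near Ryr2 and was singled out after its values were seen, read 59.4, 55.1 and 108 CPM in wild type, 100 in degeneration 1, and 0.579 and 1.60 in degeneration 2 and 3. Its value in degeneration 2 is under the floor of 3 counts.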
